A study of Mus musculus with 1479 samples.

Results

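The 10 genes described here encode the 3 small-conductance (SK) calcium-activated potassium channels Kcnn1, Kcnn2 and Kcnn3, the nucleotide receptors P2ry1, P2ry2, P2ry14 and P2rx1, and the nucleotide-degrading ectoenzymes Entpd1, Entpd2 and Nt5e. They were chosen by name, as the pathway by which extracellular ATP acts on Pdgfra-positive interstitial cells of the bladder wall, and are 10 of 46517 gene rows, of which 29351 held a read in any cell. Each sample was 1 cell from the urinary bladder of male mice of 10 to 20 weeks, and 1479 cells were divided over 11 clusters, which the study drew from these counts. The study took cluster 10 for mural cells, which are the pericytes and smooth muscle cells around vessels, cluster 5 for fibroblasts beneath the epithelium, and the others for fibroblasts, with cluster 4 left undefined. Clusters 1 to 9 and 11 are together called the fibroblast clusters below.

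The cells came from 4 reporter lines and from C57BL6 mice without a reporter. PdgfrbGFP gave 810 of the cells, or 54.8%, and Cspg4dsRED 13.7%, C57BL6 12.8%, PdgfraGFP 9.94% and Acta2GFP 8.72%. A reporter line makes green (GFP) or red (dsRED) fluorescent protein where the gene it is named for is active, in PdgfraGFP from the Pdgfra locus itself and in the others from a transgene, and the study also crossed these strains with each other. Cells were sorted by antibodies to PDGFRA or PDGFRB or by the reporters themselves, those of Acta2 and Cspg4 included, and cells with the endothelial protein PECAM1 were left out, so the number of cells per cluster follows the sort and not the tissue. Of the 6 plates, 4 held cells of 1 line each, so line and plate were in part the same. Cluster 10 held 8.45% of the cells, 65 of them from Cspg4dsRED, 45 from PdgfrbGFP, 12 from Acta2GFP, 3 from C57BL6 and 0 from PdgfraGFP. Of 91 cells in cluster 9, 85 were Cspg4dsRED, and of 51 in cluster 11, 43 were Acta2GFP, so these clusters came mostly from a single line. Reads per cell, those of the ERCC spike-in controls included, ran from 50276 to 1446059, with a median of 130410 in cluster 10 and 225770 in the fibroblast clusters.

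ATP released from bladder nerves and epithelium acts on P2X receptors, which are ion channels, and on P2Y receptors, which couple to G proteins. In smooth muscle of the bladder wall, P2X1 carries the purinergic part of contraction. In Pdgfra-positive interstitial cells, P2Y1 is known to act through Gq and the release of stored calcium, which opens SK channels and hyperpolarises the cell. The ectoenzymes end the signal. ENTPD1 (CD39) degrades ATP and ADP to AMP, ENTPD2 degrades mainly ATP to ADP, and NT5E (CD73) turns AMP into adenosine.

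The label of cluster 10 was checked against markers, as means over cells. Acta2 stood at 5408 reads per 500000 and Myh11 at 1832, against 42.7 to 484 and 1.58 to 52.2 in the fibroblast clusters, while Pdgfra stood at 6.11 against 133.03 to 453.9. Markers often used for pericytes and vascular smooth muscle were high there too, with Mcam at 561, Cspg4 at 380.6, Rgs5 at 373, Notch3 at 341.9 and Kcnj8 at 66.1. How many of the cells came from vessels and how many from the muscle of the bladder wall was not tested. The summed level of 7 epithelial markers was at most 21.1 in any cluster, that of 5 immune markers at most 15.6 and that of 5 endothelial markers at most 67.7, after the study had removed cells with endothelial or immune signatures and cells with neither Pdgfra nor Pdgfrb. Cluster 5 held Tnc at 722, and also Acta2 at 484 and Myh11 at 52.2. Cluster 4, with 23 cells, held Pdgfra at 133.03. Of 10 mural markers, 4 were at 5 or more in cluster 4, with Cspg4 at 203.8 but Rgs5 at 1.44 and Notch3 at 0.102. Of 5 endothelial markers 3 were, with Cdh5 at 28.9 but Tek at 0.282 and Kdr at 0.237, and the glial genes S100b (9.23) and Sox10 (1.15) were higher than in any other cluster. Kit, which marks another class of interstitial cells, was at most 8.496, in cluster 8.

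The promoters of the 4 genes that were called in a comparison below are shown, so that members that moved together and apart can be set side by side. Each is 300 bases, from 250 before to 50 after the start, taken from RefSeq on GRCm38.p6, and all lie on the plus strand. They are at chr3:89519914-89520213 for Kcnn3, chr11:72998895-72999194 for P2rx1, chr19:40612116-40612415 and chr19:40659520-40659819 for the pair of Entpd1 starts, and chr2:25395624-25395923 for Entpd2. Capitals mark matches on either strand to the CCAAT box (CCAAT) or the GC box (GGGCGG).
Kcnn3: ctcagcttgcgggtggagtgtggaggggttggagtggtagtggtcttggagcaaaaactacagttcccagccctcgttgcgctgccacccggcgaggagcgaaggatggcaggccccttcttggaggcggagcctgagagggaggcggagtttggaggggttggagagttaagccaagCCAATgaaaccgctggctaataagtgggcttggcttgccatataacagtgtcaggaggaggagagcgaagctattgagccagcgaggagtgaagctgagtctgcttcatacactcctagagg
P2rx1: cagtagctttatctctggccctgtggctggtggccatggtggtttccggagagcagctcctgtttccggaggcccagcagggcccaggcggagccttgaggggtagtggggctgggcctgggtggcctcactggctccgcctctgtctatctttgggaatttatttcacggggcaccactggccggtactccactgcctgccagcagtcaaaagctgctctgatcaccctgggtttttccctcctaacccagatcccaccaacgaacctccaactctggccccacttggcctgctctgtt
Entpd1 start 1: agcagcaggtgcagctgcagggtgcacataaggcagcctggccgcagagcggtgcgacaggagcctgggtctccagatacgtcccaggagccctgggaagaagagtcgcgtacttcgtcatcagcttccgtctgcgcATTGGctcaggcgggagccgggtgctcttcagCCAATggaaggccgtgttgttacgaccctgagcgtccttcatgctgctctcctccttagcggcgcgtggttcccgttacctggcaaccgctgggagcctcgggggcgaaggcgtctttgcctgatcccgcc
Entpd1 start 2: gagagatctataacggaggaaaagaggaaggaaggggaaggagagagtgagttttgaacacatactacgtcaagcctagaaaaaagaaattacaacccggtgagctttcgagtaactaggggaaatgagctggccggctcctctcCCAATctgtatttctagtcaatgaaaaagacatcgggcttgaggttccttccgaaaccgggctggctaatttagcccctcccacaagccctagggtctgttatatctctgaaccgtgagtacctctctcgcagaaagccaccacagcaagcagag
Entpd2: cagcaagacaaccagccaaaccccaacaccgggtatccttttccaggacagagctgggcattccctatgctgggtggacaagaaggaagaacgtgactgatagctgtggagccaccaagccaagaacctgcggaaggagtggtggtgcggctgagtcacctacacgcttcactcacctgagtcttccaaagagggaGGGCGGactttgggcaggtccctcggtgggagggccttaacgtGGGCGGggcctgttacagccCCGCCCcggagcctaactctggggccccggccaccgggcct
Kcnn3 held a CCAAT box from position -72 to -68 from the start, and both Entpd1 starts held at least 1. Entpd2 held GC boxes at -54 to -49 and -11 to -6, and 1 on the minus strand at 10 to 15. None of the 5 windows held a TATA box (TATAAA) or a CArG box, the site of serum response factor, and the P2rx1 window held none of the 4 motifs. Of 32851 RefSeq promoters of the same length, 37.4% held a CCAAT box, 35.7% a GC box, 13.6% a TATA box and 1.63% a CArG box.

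A level is the number of reads per 500000 in a cell. It was first averaged within each line with at least 3 cells, and the mean of the lines is given with their SD. For tests, the reads of all cells of a line in each of the compared classes were added up and fitted with edgeR over all genes, with the line as a block. A call needed an adjusted p (Benjamini-Hochberg) below 0.05 and a log2 fold change of 2 or more in either direction for clusters 10 and 5, or 1 or more for another cluster. Since the clusters were made from these values, a call says only how far a difference repeated over lines, which are assumed independent because the labels name no animal.

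Against the fibroblast clusters, cluster 10 had more P2rx1 and much less Kcnn3 and Entpd2. All 10 genes could be tested, and 1 was called higher and 2 lower, where 2.17% of 16092 genes were called higher and 4.02% lower. Cluster 5 had less Kcnn3 and Entpd2 than the other fibroblast clusters. Here 9 of the 10 could be tested, as Kcnn2 had too few reads for the low-count filter, and both calls were lower, where 0.465% of 16145 genes were called lower and 0.297% higher. In the 9 comparisons of a single other cluster with the rest, 4 calls fell on members, 3 on Kcnn3 and 1 on Entpd1, where 0.14% of 138516 gene tests gave a call. The gene in the middle of all those tested had a log2 fold change of -0.93 in cluster 10, -0.77 in cluster 5, -1.07 in cluster 4, -0.81 in cluster 6 and -0.41 in cluster 7, and values relative to this median gene are given beside the calls. With the median gene set to 0, the share of calls that were lower went from 64.9% of 997 to 31% of 778 in cluster 10, and from 61% to 29.1% in cluster 5.

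**Figure D1:**
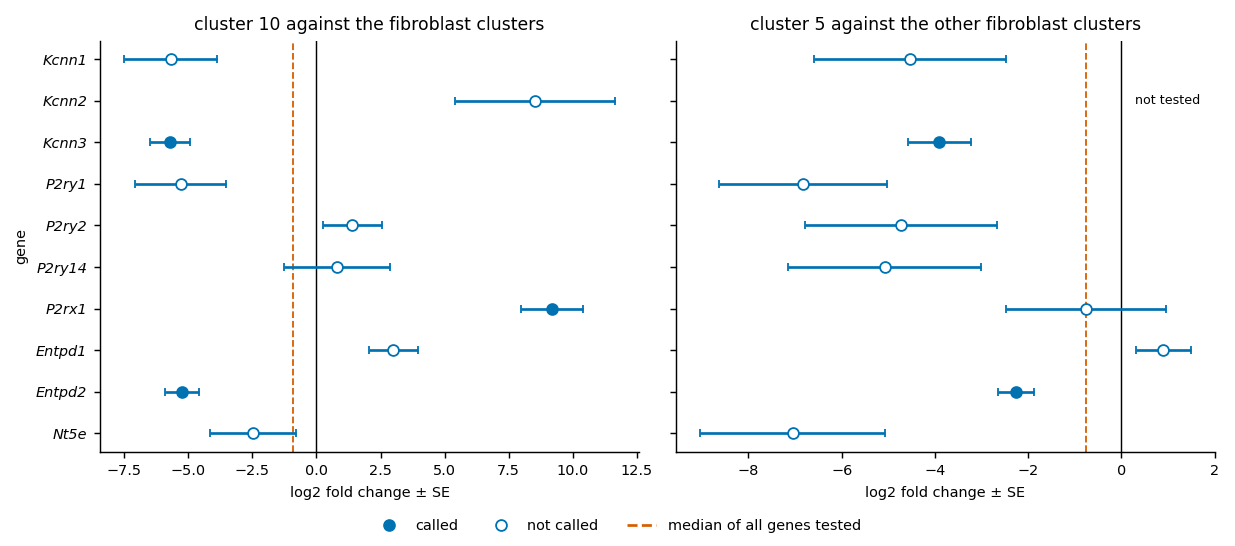
Log2 fold change with its standard error (x axis) of each of the 10 genes (y axis) in cluster 10 against the fibroblast clusters (left) and in cluster 5 against the other fibroblast clusters (right). Filled points were called, open points were not, and the dashed line is the median of all genes tested, -0.93 and -0.77. On the left Kcnn3 and Entpd2 lie at -5.72 and -5.25 and P2rx1 at 9.18, and on the right Kcnn3 and Entpd2 lie at -3.91 and -2.26, while 5 genes that were not called, from Kcnn1 at -4.53 to Nt5e at -7.05, lie further left.

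Kcnn3, which encodes SK3, made up nearly all SK channel RNA of the fibroblast clusters. Per kilobase of exon, its level there was 19.8 ± 4.16 (SD, n = 5 lines), or 95.5% of the sum of the 3 channels, against 0.918 ± 0.813 for Kcnn1 and 0.00533 ± 0.0119 for Kcnn2. In cluster 10 the sum was 1.33 per kilobase, of which Kcnn2 made 58.1% and Kcnn3 40.1%. With each line left out in turn, the share of Kcnn2 ran from 46.5% to 73.1% and that of Kcnn3 from 26.3%, without PdgfrbGFP, to 50.5%, without C57BL6 and its 3 cells, where the order of the pair turned.

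The Kcnn3 level in cluster 10 was 2.64 in Acta2GFP, 5.02 in C57BL6, 2.47 in Cspg4dsRED and 12.1 in PdgfrbGFP. In the fibroblast clusters of the same lines it was 147.9, 261.8, 214.6 and 226.8. Cluster 10 was lower in 4 of 4 lines, the groups did not overlap, and it was also lower in all 7 pairs within a plate and line. On the log2 scale the difference was -5.72 (SE 0.78, edgeR adjusted p = 6.36e-05), which is -4.78 when the median gene is set to 0. What remained in cluster 10 was 1.15% to 5.33% of the fibroblast level of the line. Among 5 fibroblast markers, Pdgfra remained at 0.979% to 3.81%, Cd34 at 0.669% to 5.49%, Lum at 1.65% to 7.17%, Col1a1 at 5.22% to 9.91% and Dcn at 1.99% to 32.7%. Whether these reads came from neighbouring wells was not tested.

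In cluster 5 the Kcnn3 level was 33.8 in PdgfrbGFP, 25.3 in C57BL6, 12.4 in PdgfraGFP and 2.31 in Cspg4dsRED. The other fibroblast clusters held 236.3, 282.5, 212.3 and 219.4, so cluster 5 was lower in 4 of 4 lines with no overlap. Its log2 fold change was -3.91 (SE 0.68, edgeR adjusted p = 0.0181) and -3.14 relative to the median gene. With the median gene set to 0 the adjusted p of Kcnn3 was 0.0547 and the call was lost.

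Kcnn3 also varied among the remaining fibroblast clusters, and cluster 6 stood at the top. Its level there was 610 in C57BL6, 583 in Cspg4dsRED, 524 in PdgfrbGFP, 507 in Acta2GFP and 492.9 in PdgfraGFP, a mean of 543 ± 50.6 (SD, n = 5 lines). The rest of the fibroblast clusters, without cluster 5, held 241.8, 211.1, 173.9, 128.5 and 123.7, all below the lowest line of cluster 6. It was higher in 5 of 5 lines, with a log2 fold change of 1.58 (SE 0.21, adjusted p by edgeR 0.0212), or 2.39 relative to the median gene, in a comparison where 0.0123% of genes were called higher. The adjusted p was 0.0996 without Acta2GFP, 0.0791 without PdgfrbGFP and 0.161 with no line term, so that the Kcnn3 call in cluster 6 was lost there. Cluster 3 came next with 296.1 ± 104.1 (SD, n = 4 lines), and this gap was larger than the larger SD, the only such gap among the 10 neighbouring pairs in the order of Kcnn3.

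Clusters 4 and 7 held the least Kcnn3 among these clusters. In cluster 7 its level was 87.1 in Cspg4dsRED, 66.6 in PdgfraGFP, 50.6 in PdgfrbGFP, 26.6 in C57BL6 and 13.7 in Acta2GFP, against 231.1, 260.4, 281.3, 350 and 159.1 in the rest. It was lower in 5 of 5 lines, at a log2 fold change of -2.86 (SE 0.30, adjusted p by edgeR 0.00613), or -2.45 relative to the median gene, in a comparison where 0.297% of genes were called lower. In cluster 4 Kcnn3 was at 0.748 in Cspg4dsRED and 66.1 in PdgfrbGFP, the latter from 4 cells, against 250.8 and 237.3 in the rest. There the log2 fold change of Kcnn3 was -5.17 (SE 1.03, edgeR adjusted p = 0.000184) and -4.10 relative to the median gene, with 0.388% of genes called lower. It rests on 2 lines, and the adjusted p was 0.0598 with the median gene at 0, 0.0614 by DESeq2 and 0.392 with no line term. Single markers that were high in cluster 4 (Cspg4, Cdh5 and S100b) move with this result, and their part in it was not tested. The whole mural list summed to 313.3 in cluster 4 and to 82.5 to 633 in the other fibroblast clusters, the endothelial list to 59.3 and 24.7 to 67.7, and the list of nerve and glia to 19.3 and 1.30 to 44.9.

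**Figure D2:**
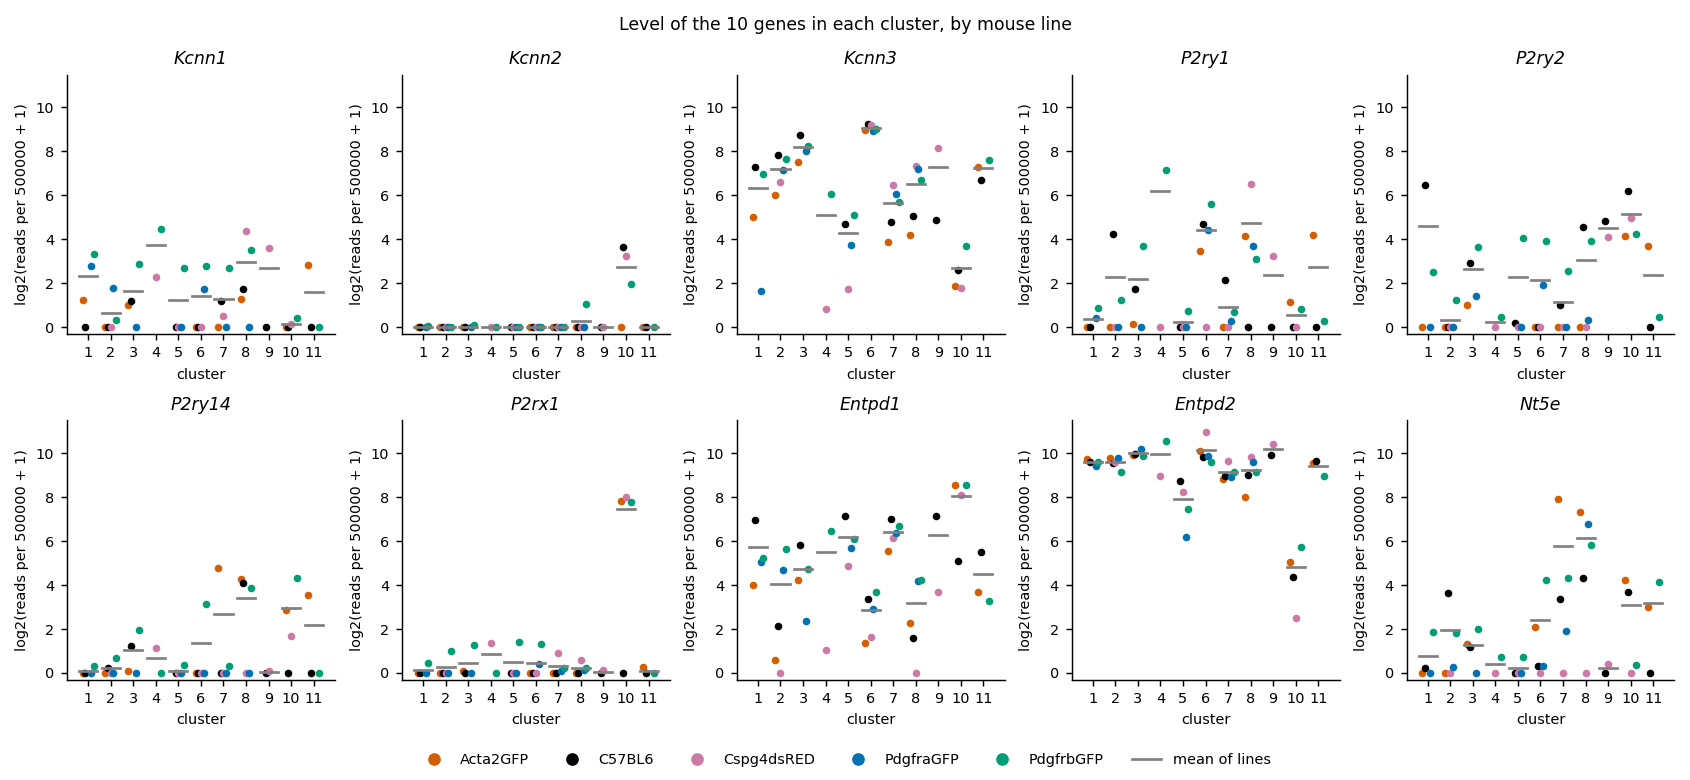
Level of each gene as log2(reads per 500000 + 1) (y axis) in clusters 1 to 11 (x axis). Points are mouse lines with at least 3 cells in the cluster, coloured by line, and grey bars are the mean of the lines. Kcnn3 peaks in cluster 6 and is lowest in cluster 10, Entpd2 is high in every cluster but 5 and 10, and P2rx1 is above 3 on this axis in cluster 10 only, where the C57BL6 point is at 0.

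A read of Kcnn3 was found in most cells of most clusters. After each cell was thinned to 50000 reads, 75.4% of 1348 fibroblast cells had one (95% Clopper-Pearson interval 73.1% to 77.7%, counting error only, as for all intervals here). The share was 97.3% in cluster 6 and 26.4% in cluster 10, and without thinning 98.9% and 35.2%. The thinned share in cluster 10 was 53.3% in PdgfrbGFP and 9.23% in Cspg4dsRED, so that it was 11.2% without the former and 45% without the latter. With at least 10 reads required, the shares in clusters 6 and 10 were 92.6% and 10.4%. Within a cluster the cells differed widely. In cluster 8 the middle of the cells ran from 3.57 to 98.9 reads per 500000 (quartiles), with a highest cell of 1820, and in cluster 6 from 236.01 to 789.

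**Figure D3:**
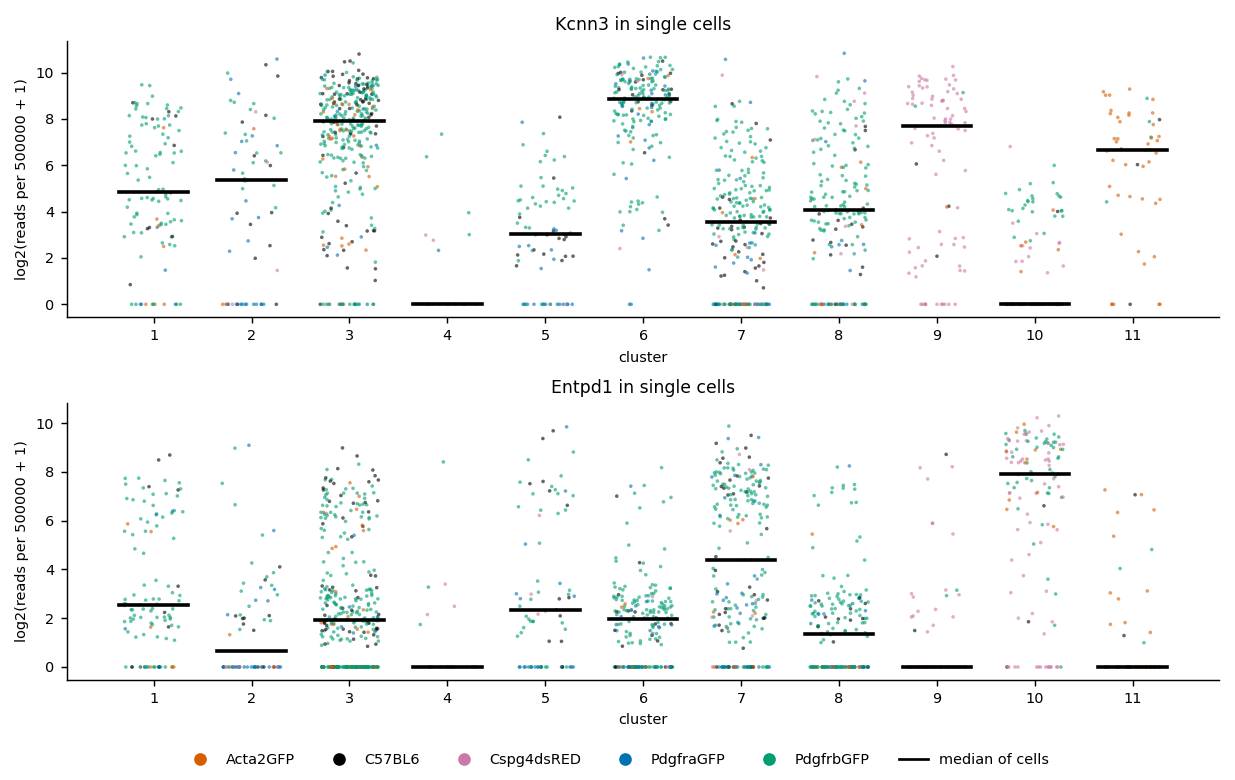
Single-cell levels of Kcnn3 (top) and Entpd1 (bottom) as log2(reads per 500000 + 1) (y axis) by cluster (x axis). Each point is 1 cell, coloured by line and spread sideways at random, and black bars are medians over cells. The median Kcnn3 level is 460 reads per 500000 in cluster 6 and 0 in clusters 4 and 10, and cells of clusters 1, 7, 8 and 9 range from 0 to above 700.

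Kcnn1, which encodes SK1, was sparse. It had 4614 reads, found in 13.9% of all cells. Its level ran from 0.113 in cluster 10 to 12.5 ± 12.1 in cluster 4 (SD, n = 2 lines), and no gap between neighbouring clusters exceeded the larger SD. It was lower in cluster 10 in 4 of 4 lines (log2 fold change -5.68, SE 1.82, edgeR adjusted p = 0.0631) and was not called. Its adjusted p in cluster 10 was 0.0482 with median-of-ratios scaling, 0.00129 by DESeq2, 0.0322 with no line term and 0.0187 with sums per plate and line.

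Kcnn2, which encodes SK2, had a read in 20 of 1479 cells. In cluster 10 its level was 0 in Acta2GFP, 11.7 in C57BL6, 8.43 in Cspg4dsRED and 2.88 in PdgfrbGFP, from 11 cells that held 58.8% of all Kcnn2 reads. The fibroblast reads all came from PdgfrbGFP, and 1 cell of cluster 8 held 38.6% of all Kcnn2 reads. A read was found in 7.20% of the thinned cells of cluster 10 (3.35% to 13.2%) and in 0.223% of 1348 fibroblast cells (0.0459% to 0.649%). The difference was not called (log2 fold change 8.52, SE 3.11, edgeR adjusted p = 0.103). The Kcnn2 call appeared by DESeq2 (adjusted p = 0.00215), in thinned cells (0.0389) and without PdgfrbGFP (0.0394). In clusters 2, 4, 5, 9 and 11 it had no read. In the 64 thinned cells of cluster 2 that allows a share of cells with a read of up to 4.69%, from 3 counts, and in the 76 of cluster 5 up to 3.95%.

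Among the receptors, P2rx1 stood apart, and cluster 10 held 93.1% of its 9355 reads. Its level there was 227.1 in Acta2GFP, 0 in C57BL6, 254.1 in Cspg4dsRED and 217.2 in PdgfrbGFP. In the fibroblast clusters of these lines it was 0.105, 0, 0.370 and 0.870. Cluster 10 was higher in 3 of 4 lines, and in C57BL6, with 3 cells of cluster 10, both were at 0. The difference on the log2 scale was 9.18 (SE 1.21, edgeR adjusted p = 5.59e-05), and 10.12 with the median gene at 0. Within plate and line, cluster 10 was higher in 6 of 7 pairs and both classes were at 0 in the other.

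Not every cell of cluster 10 had P2rx1. A read was found in 41.6% of its thinned cells (32.9% to 50.8%), and 37.6% had at least 10 reads before thinning. In the fibroblast clusters 2.74% of 1348 had a read (1.94% to 3.76%), or 1.19% without PdgfrbGFP, while 0.222% of 1354 had at least 10. The share was 3.52% of 825 fibroblast cells that had a cluster 10 cell in the same row or column of the plate, and 1.53% of 523 that had none. For Myh11, a smooth muscle gene, these shares were 24.5% and 8.80%. Of the 647 fibroblast reads of P2rx1, 356 were in 1 cell, and whether the others came from neighbouring wells was not tested.

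P2ry1, the receptor placed upstream of SK channels in interstitial cells, was low. It had 8786 reads, found in 18.9% of all cells, and a level of 9.59 ± 4.32 in the fibroblast clusters (SD, n = 5 lines). Cluster 6, the cluster with most Kcnn3, had a read of P2ry1 in 22.5% of thinned cells (16.7% to 29.1%), against 9.05% of all 1348 fibroblast cells (7.57% to 10.7%) and 4.80% of those in cluster 10 (1.78% to 10.2%). Without PdgfrbGFP these P2ry1 shares were 10.3%, 4.78% and 1.25%. The level in cluster 6 was 47.4 in PdgfrbGFP, 24.6 in C57BL6, 20.8 in PdgfraGFP, 10.1 in Acta2GFP and 0 in Cspg4dsRED. The lines did not agree on the order of the clusters, since the mean was higher in cluster 8 through Cspg4dsRED at 91.7, and in cluster 4 through PdgfrbGFP at 142.7 from 4 cells. No gap between neighbouring clusters exceeded the larger SD.

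P2ry1 was not called in either main comparison. In cluster 10 it was lower in 4 of 4 lines (log2 fold change -5.30, SE 1.77, edgeR adjusted p = 0.0743), and in cluster 5 likewise in 4 of 4 (-6.84, SE 1.80, adjusted p = 0.142), where DESeq2, sums per plate and line and thinned cells gave a call. Its adjusted p in cluster 10 was 0.000299 by DESeq2, 0.0485 with no line term and 0.00986 with sums per plate and line. P2ry1 shares 992 exon bases, 23.1% of its own, with Gm37035 on the opposite strand, which had 3551 reads, and 77 fibroblast cells had a read of both. The strand setting of the counting is not stated, so reads of the pair cannot be told apart there.

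P2ry2, a receptor for ATP and UTP, had its highest level in cluster 10, at 16.9 in Acta2GFP, 71.6 in C57BL6, 30.03 in Cspg4dsRED and 18.03 in PdgfrbGFP. It was above the fibroblast clusters in 4 of 4 lines, at 4.70, 9.53, 10.1 and 10.1, and the groups did not overlap, but within plate and line it was higher in 5 of 7 pairs and lower in 2, and it was not called (log2 fold change 1.39, SE 1.15, edgeR adjusted p = 0.562, and 2.33 once the median gene is set to 0). The reads came from few cells, as 4.80% of thinned cells of cluster 10 (1.78% to 10.2%) and 7.64% of 1348 fibroblast cells (6.28% to 9.19%) had one. Without PdgfrbGFP the fibroblast share was 3.92%. In cluster 10 the other lines had a read in 1 of 12 cells (Acta2GFP), 1 of 3 (C57BL6) and 1 of 65 (Cspg4dsRED). Over all lines the level was higher and the share lower in cluster 10, with overlapping intervals of the share, and no order is read from them. P2ry14, the receptor for UDP-glucose, had 3309 reads, found in 10.8% of all cells. Its level was 9.54 ± 8.89 in cluster 8 (SD, n = 5 lines) and 6.82 ± 8.46 in cluster 10 (n = 4 lines), with a log2 fold change in cluster 10 of 0.79 (SE 2.06, edgeR adjusted p = 0.889).

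Per kilobase of exon, the 4 receptors summed to 75.9 in cluster 10, of which P2rx1 made 87.6% and P2ry2 11.4%, or 93.2% and 5.80% without the 3 cells of C57BL6. In the fibroblast clusters they summed to 4.39, of which P2ry1 made 50.8%, P2ry2 40.8% and P2rx1 2.49%. In cluster 6 the sum was 5.93, with P2ry1 at 80.8%.

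**Figure D4:**
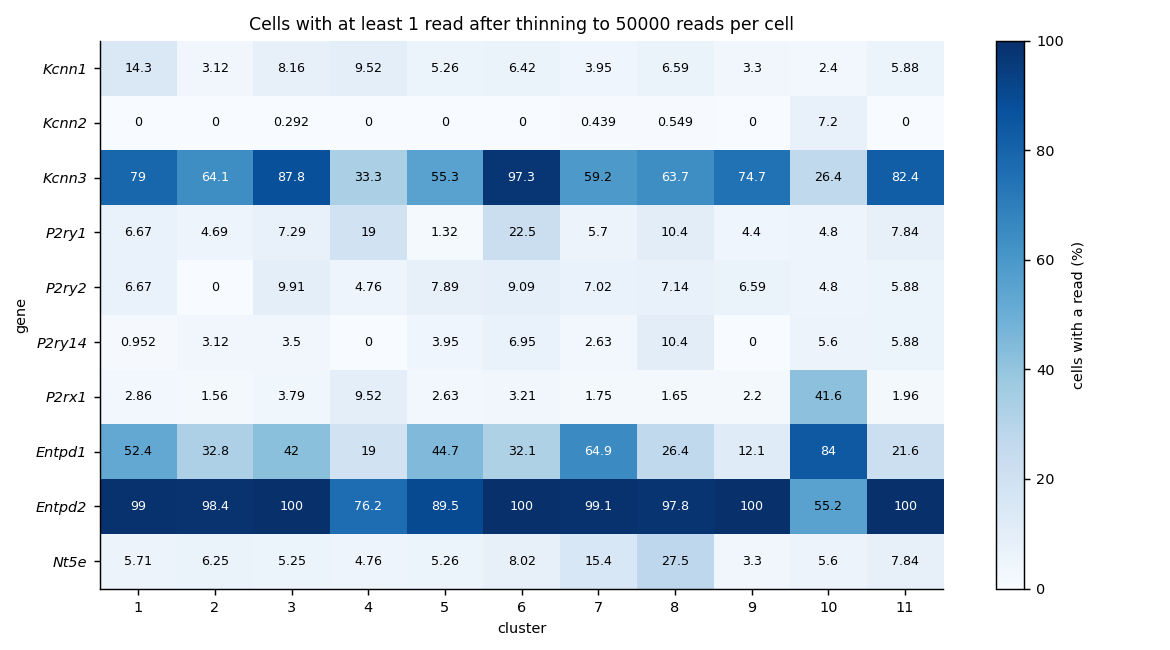
Share of cells with at least 1 read after thinning to 50000 reads per cell, in percent, for each gene (rows) and cluster (columns), with darker blue for a higher share. Entpd2 and Kcnn3 are found in most fibroblasts, P2rx1 reaches 41.6% in cluster 10 and at most 9.52% elsewhere, and P2ry1 is highest in cluster 6 at 22.5%.

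Entpd2 was the most abundant of the 10 genes. Per kilobase its level in the fibroblast clusters was 387 ± 84.2 (SD, n = 5 lines), 98.01% of the sum of the 3 ectoenzymes. A read was found in 98.4% of 1348 thinned fibroblast cells, and in all cells of clusters 3, 6, 9 and 11. In cluster 10 the enzyme sum was 61.01 per kilobase, of which Entpd1 made 77.8% and Entpd2 20.8%.

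In cluster 10 the Entpd2 level was 31.7 in Acta2GFP, 19.4 in C57BL6, 4.71 in Cspg4dsRED and 52.1 in PdgfrbGFP. The fibroblast clusters of the same lines held 784, 765, 1138 and 722, with no overlap. Cluster 10 was lower in 4 of 4 lines and in 7 of 7 pairs within plate and line (log2 fold change -5.25, SE 0.65, edgeR adjusted p = 2.05e-05). Relative to the median gene the change was -4.31. What remained was 0.414% to 7.21% of the fibroblast level, beside the values of the 5 fibroblast markers given for Kcnn3.

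In cluster 5 Entpd2 was at 421 in C57BL6, 301.2 in Cspg4dsRED, 175.3 in PdgfrbGFP and 71.01 in PdgfraGFP. The other fibroblast clusters held 795, 1157, 749 and 816, so it was lower in 4 of 4 lines with no overlap. Its log2 fold change was -2.26 (SE 0.39, edgeR adjusted p = 0.0165), and -1.50 relative to the median gene. The Entpd2 call in cluster 5 was lost with the median gene at 0 (adjusted p = 0.114), with no line term (0.0537), without Cspg4dsRED (0.144) and without PdgfraGFP, where the log2 fold change was -1.74. Over the 11 clusters the level fell in order from 1166 ± 282.01 in cluster 9 to 26.96 ± 20.05 in cluster 10, and only the steps down to cluster 5 and from there to cluster 10 exceeded the larger SD. In cluster 7 Entpd2 was below the rest with a log2 fold change of -0.73 (adjusted p = 0.00865), under the fold limit, and -0.32 relative to the median gene. With the median gene at 0, edgeR called Entpd2 higher in clusters 2, 6, 9 and 11, at log2 fold changes from 1.15 to 1.68. At that setting only 0% to 4.03% of all calls in these clusters were lower. In cluster 2 Entpd2 had a log2 fold change of 0.08 before this shift, and was lower than the rest in 3 of 5 lines.

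Entpd2 shares 612 exon bases, 28.8% of its own, with Npdc1 on the same strand. Npdc1 had 322849 reads, and was also lower in cluster 10 (log2 fold change -3.22, SE 0.61, edgeR adjusted p = 0.00237), with a pattern over the 11 clusters that correlated with that of Entpd2 (Pearson r = 0.987). How the counting treated reads over both genes is not stated, so a part of either value may belong to the other.

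Entpd1 had its highest level in cluster 10, where Entpd2 was lowest, and the next highest in cluster 7. In cluster 10 it was at 377 in Acta2GFP, 33.1 in C57BL6, 276.2 in Cspg4dsRED and 373 in PdgfrbGFP. The fibroblast clusters held 15.03, 67.3, 14.2 and 40.3, so cluster 10 was higher in 3 of 4 lines, and C57BL6, with 3 cells, went the other way. Fitted, this was a log2 fold change of 3.00 (SE 0.97, adjusted p by edgeR 0.0662), or 3.93 with the median gene at 0, and Entpd1 was not called. Without C57BL6 it was 3.91 (SE 0.39, adjusted p = 0.00341), and without Acta2GFP 2.29 (adjusted p = 0.200). The Entpd1 call appeared under 8 of 12 alternatives. A read was found in 84% of thinned cells of cluster 10 (76.4% to 89.9%) and in 39.8% of 1348 fibroblast cells (37.1% to 42.4%).

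Among the fibroblast clusters Entpd1 was highest in cluster 7, at 127.2 in C57BL6, 103.5 in PdgfrbGFP, 80.5 in PdgfraGFP, 70.1 in Cspg4dsRED and 46.3 in Acta2GFP. The rest held 43.3, 23.4, 14.5, 8.87 and 12.4, so each line of cluster 7 was above every line of the rest. It was higher in 5 of 5 lines by a log2 fold change of 2.06 (SE 0.28, adjusted p by edgeR 0.0200), and 2.47 relative to the median gene, where 0.109% of genes were called higher. The adjusted p of Entpd1 in cluster 7 was 0.114 without C57BL6, 0.119 without PdgfraGFP, 0.148 without PdgfrbGFP and 0.0542 with no line term. Entpd1 was thus called higher in the cluster where Kcnn3 was called lower. Among thinned cells of cluster 7, a Kcnn3 read was found in 61.5% of those with an Entpd1 read and in 55% of those without.

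Nt5e, which completes the breakdown of AMP to adenosine, was detected mainly in clusters 8 and 7. A read was found in 27.5% of thinned cells of cluster 8 (21.1% to 34.6%) and in 15.4% of cluster 7 (10.9% to 20.7%), against 10.4% of 1348 fibroblast cells and 5.60% in cluster 10. Without PdgfrbGFP the Nt5e share was 6.98% in cluster 7 and 5.63% of fibroblast cells. In cluster 8 its level was 160 in Acta2GFP, 110 in PdgfraGFP, 56.3 in PdgfrbGFP, 19.1 in C57BL6 and 0 in Cspg4dsRED. The lines of cluster 8 thus ranged widely, no gap between neighbouring clusters exceeded the larger SD, and edgeR did not call Nt5e in any comparison. DESeq2 called it lower in clusters 1, 2, 3, 5 and 6, and edgeR did in clusters 3 and 5 with sums per plate and line. In cluster 10 its log2 fold change was -2.47 (SE 1.67, edgeR adjusted p = 0.446) and in cluster 5 -7.05 (SE 1.99, adjusted p = 0.168).

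The pathway around these genes was described with 4 lists. Of 19 purine receptors, 13 could be tested in cluster 10, where P2rx1 was called higher and P2rx4, an ATP-gated channel, lower (log2 fold change -4.52, SE 1.08, edgeR adjusted p = 0.0153). The median of the 13 was -0.05, against -0.93 over all genes. Of 15 genes from Gq to calcium, 14 could be tested and 1 was called, the IP3 receptor gene Itpr3 (-6.99, SE 1.81, adjusted p = 0.0256), with a median of -0.17. The calmodulin gene Calm2 was higher with an edgeR adjusted p = 0.0282, but its log2 fold change of 1.41 (SE 0.37) was under the fold limit. At an unadjusted p under 0.05, 1 of the receptors was higher and 5 lower in cluster 10, and 4 of the Gq to calcium genes higher and 1 lower, while DESeq2 called 1 higher and 4 lower, and 1 and 1. Over all genes tested in cluster 10, 3559 of 16092 had an unadjusted p under 0.05 and DESeq2 called 18.6%. P2rx4 and Itpr3 lost the call under 4 of 12 alternatives each, the one with the median gene at 0 among them. In cluster 5, edgeR called 0 of the 13 receptors and 0 of the 14 Gq to calcium genes. At an unadjusted p under 0.05 there were 7 and 2, all lower, and DESeq2 called 5 of the receptors, all lower, and 0 of the Gq to calcium genes. Over all genes tested in cluster 5, 2127 of 16145 had such a p and DESeq2 called 8.68%.

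Of 14 genes of nucleotide release and breakdown, 12 could be tested in cluster 10, and 6 were called, all lower, with a median of -4.46. Beside Entpd2 these were Panx1, which forms an ATP release channel (-7.48, SE 1.83), the ectonucleotidases Enpp3 (-5.88, SE 1.53) and Enpp1 (-4.96, SE 1.12), the phosphatase Alpl (-4.49, SE 1.19) and, named after its value was seen, the adenosine kinase Adk (-4.43, SE 0.92). Their edgeR adjusted p-values ran from 0.00472 for Adk to 0.0288 for Alpl. DESeq2 called 2 genes of the list higher and 7 lower, where it called 18.6% of all genes. At an unadjusted p under 0.05 there were 1 higher and 7 lower, where 3559 of 16092 genes had such a p. With the median gene at 0 Entpd1 was called higher. Entpd2 and Adk were called in all 12 alternatives, and the other 4 in 8 to 10. With the median gene at 0 the calls on Alpl, Enpp1 and Enpp3 were lost, and without Acta2GFP those on Alpl, Enpp1, Enpp3 and Panx1. In cluster 5 the list had 2 calls, Entpd2 and Enpp1 (-3.98, SE 0.80, adjusted p = 0.0428), of which both were lost with the median gene at 0, and that of Enpp1 also without PdgfraGFP and without PdgfrbGFP (adjusted p up to 0.231). The list had a median of -2.29 against -0.77 over all genes.

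Of 9 calcium-activated channel genes, 7 could be tested in cluster 10. Kcnmb1 and Kcnma1, the subunits of the large-conductance BK channel, were higher (9.59, SE 1.32, and 6.64, SE 1.92), as was the chloride channel gene Ano1 (6.77, SE 1.05), and Kcnn3 was the 1 call lower. The edgeR adjusted p-values of the 3 higher genes were 7.13e-05, 0.0447 and 0.000286. Kcnma1 lost its call when Acta2GFP, Cspg4dsRED or PdgfrbGFP was left out. Ano1 stood at 147.6 ± 72.5 in cluster 10 (SD, n = 4 lines), and Kit there at 0.541 as a mean over cells. In cluster 5 the list had 1 call, Kcnn3.

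**Figure D5:**
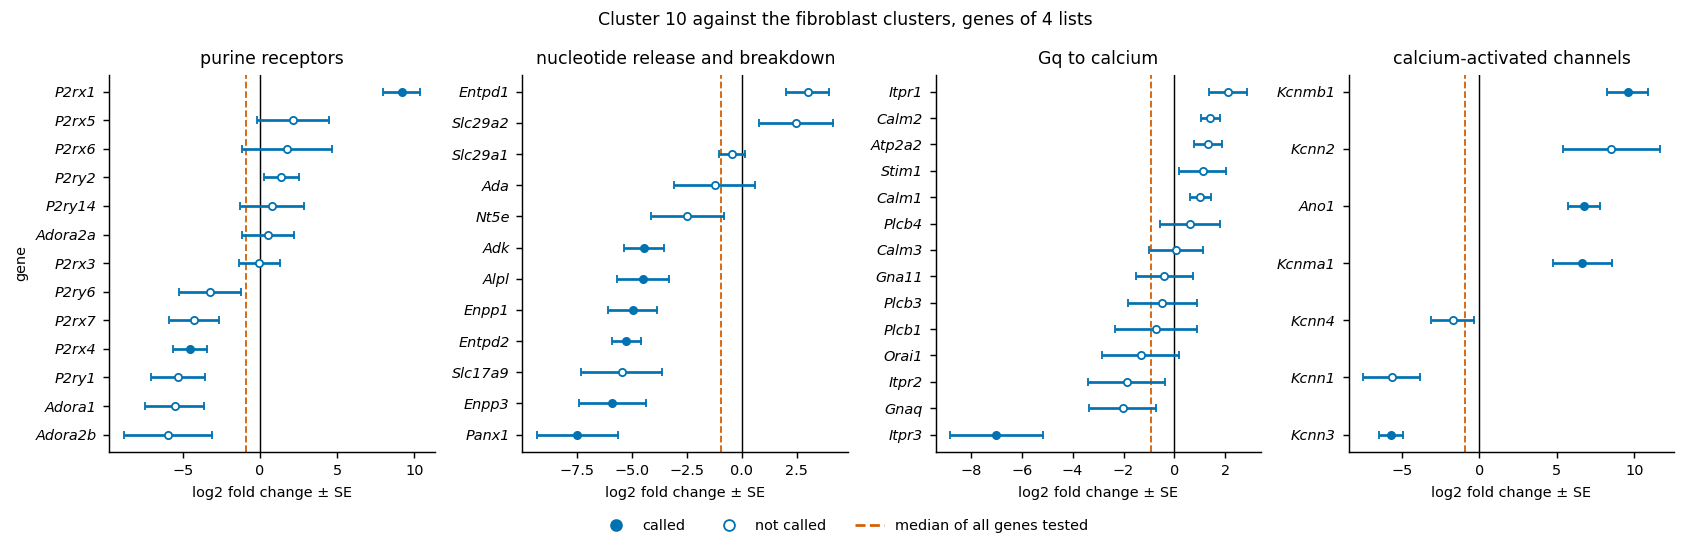
Log2 fold change with its standard error (x axis) in cluster 10 against the fibroblast clusters, for the tested genes (y axis) of 4 lists, 1 panel a list. Filled points were called and the dashed line is the median of all genes, -0.93. The nucleotide release and breakdown genes called all lie left of the line, and the calcium-activated channels split into 3 called higher and Kcnn3 lower.

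Thinned cells with reads of both members of a pair were counted to describe which members shared cells. In the fibroblast clusters 86.1% of the cells with a P2ry1 read also had a Kcnn3 read, where 75.4% of all did, and 1014 of the 1017 Kcnn3 cells also had Entpd2, as 1327 of all 1348 did. In cluster 6, 41 of 42 P2ry1 cells had Kcnn3, as 97.3% of all cells there did. In cluster 10, 48 of 52 P2rx1 cells had Entpd1, as 84% of all did. In cluster 8, 11 of the 19 cells with P2ry14 had Nt5e, where 27.5% of all had Nt5e.

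The genes with patterns most like those of the members were taken by Pearson correlation of log2(level + 1) over the 11 cluster means, among 13056 genes with a level of at least 5 in some cluster. The clusters share lines and plates, so r is a description. For Kcnn3 they were Prnp (r = 0.951), Adamtsl2 (0.940) and Pam (0.937). Adamtsl2 was also called lower in both cluster 10 and cluster 5 (log2 fold changes -6.18, SE 1.28, edgeR adjusted p = 0.00486, and -6.66, SE 1.15, adjusted p = 0.0178). Prnp and Pam were called lower in cluster 10 (-2.50 and -2.22) and not called in cluster 5 (-1.50 and -1.08). These genes were chosen for following Kcnn3, which was lowest in clusters 10 and 5, so the calls are not a separate result. For P2ry1 they were its overlapping neighbour Gm37035 (0.992), Dapk2 (0.918) and Sult5a1 (0.916), and for Entpd2 its neighbour Npdc1, Rab3il1 (0.978) and Selenop (0.974). For P2rx1 they were Mas1, Cd93 and Blnk, each at r = 0.998, none of which was called in cluster 10 (edgeR adjusted p = 0.163, 0.0846 and 0.670), and for Kcnn2 they were Asb10 (0.9997), Ky (0.999) and Map3k7cl (0.999), which were called higher there. Each r of these 2 members rests on cluster 10, the highest point. The genes were chosen for following that pattern, so the calls there are not a separate result. For the others the best r was lower, at 0.925 for Kcnn1 with Slc22a17, 0.898 for P2ry2 with Gm20652, 0.867 for Entpd1 with Vps72, and 0.930 for Nt5e with Gm14820. P2ry14 was most like another member, Nt5e (0.895).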

How the data were processed

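The deposited values are read counts per gene and cell, as a single table with 46517 rows for genes and 92 for ERCC spike-ins. According to the study's methods, full-length cDNA was made with Smart-seq2, which carries no molecular identifiers, so that intervals cover counting error only. Reads were trimmed with trim galore, mapped to GRCm38 with TopHat2, cleared of what the methods call doublets and counted with featureCounts. The annotation release and the strand setting are not given in the sources used here. The submitters' processing notes also name bcl2fastq, Bowtie, Bowtie2 and Subread. Cells of few reads or genes, of very many genes, or of high spike-in or mitochondrial share had been removed, as had cells with neither Pdgfra nor Pdgfrb and cells with endothelial or immune signatures.

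Symbols and union exon lengths came from GENCODE M21, which covered 46005 gene rows. Depth ran from 50276 to 1446059 reads per cell with ERCC included. Counts were summed per mouse line and class, and a line entered a comparison with at least 3 cells in both classes. The labels name no animal, so p-values measure how far the difference between classes varied from line to line. Sums were tested with edgeR 4.0.16 in R 4.3.3 (TMM, filterByExpr, quasi-likelihood test, line as a block), after a test on simulated data, with Benjamini-Hochberg adjustment over all genes tested. Single clusters were compared with the fibroblast clusters other than 5. Shares came from cells thinned at random to 50000 reads without ERCC, which left out 6 of 1479 cells. A share of 0 was given the limit of 3 counts. The alternatives were median-of-ratios scaling, the median gene at 0, DESeq2 1.42.0, no low-count filter, no line term, sums per plate and line, thinned cells, no fold limit, and each line left out (for shares of cells and family sums chosen after seeing the data). Tables and plots were made with Python 3.11.15, numpy 2.4.6, scipy 1.17.1, pandas 2.3.3 and matplotlib 3.10.9.

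All 10 genes were named in each comparison, with up to 5 called genes per pathway list and the 3 genes most alike in pattern. The members, lists and tests were chosen with earlier results of these data known.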

Additional observations from a re-analysis of the deposited data

Results flagged for a closer look

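In 7 of 45 groups of 4 or 5 lines, the line at one end lay apart from the others by more than Dixon's 95% limit. That limit is set for normally distributed values, while these are skewed means, some from 3 cells. Some of the groups also share cells, so the count is not set against a rate by chance. Levels are reads per 500000 reads of a cell. P2ry1 in cluster 8 was at 91.7 in Cspg4dsRED (14 cells) and at most 17.02 in the other lines. P2ry2 in cluster 1 was at 87.2 in C57BL6 (9 cells), against at most 4.73. In cluster 7, Acta2GFP (9 cells) held P2ry14 at 26.7, against at most 0.234, and Nt5e at 241.3, against at most 19.2. P2rx1 in cluster 10 was at 0 in C57BL6 (3 cells), against 217.2 to 254.1. Entpd2 in cluster 6 was at 1994 in Cspg4dsRED (3 cells), against 779 to 1098. Over all fibroblast clusters Entpd2 was at 1138 in Cspg4dsRED, against 704 to 784. The cells of a line share a sort and plates, and the part of these in the differences was not tested.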

How the results depend on the processing

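No paired analysis was possible by replicate number, because the labels give none. The line was a block in the fits, which so compared classes within lines, and sums per plate and line compared them within plates. In cluster 10, where 3 members were called, the count was 5 with median-of-ratios scaling, 7 by DESeq2, 6 with no line term, 6 with sums per plate and line, 5 in thinned cells and 3 to 4 with a line left out, and the calls on Kcnn3, Entpd2 and P2rx1 were kept throughout these. In cluster 5, with 2 calls, it was 0 with the median gene at 0, 6 by DESeq2, 1 with no line term, 4 with sums per plate and line and 1 to 2 with a line left out. For single clusters, with 4 calls, it was 7 with the median gene at 0, 17 by DESeq2, 1 with no line term, 8 with sums per plate and line and, of the 3 calls in clusters that could be refitted, 1 to 3 with a line left out. The call on Kcnn3 in cluster 7 was kept in all 13 alternatives. The share of all genes called moved with these settings as well. It was 6.2% in cluster 10, but 8.98% with median-of-ratios scaling, 18.6% by DESeq2, 10.6% with no line term, 15.9% with sums per plate and line and 8.57% in thinned cells. In cluster 5 it was 0.762%, but 8.68% by DESeq2, 2.43% with no line term and 3% with sums per plate and line, and for single clusters it was 0.14%, but 1.08% with the median gene at 0, 3.73% by DESeq2, 0.318% with no line term and 1.48% with sums per plate and line. The causes were not tested. Of 1067 alternative log2 fold changes of members, 15 lost a call, 51 gained one and 1001 did neither. P2ry14 in cluster 10, which was not called, changed sign in 2 of 12 alternatives. Of the alternative shares of cells, 52 moved beyond their interval and 56 did not, as the share depends on depth and on the reads required. With a line left out, an alternative chosen after seeing the data, 37 of 230 shares moved beyond their interval. Only 1 alternative level moved beyond the SD between lines. Sums per plate and line could not be fitted for cluster 4, with 1 unit, and no line was left out for clusters 4 and 9, with 2 lines each.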
